A study of Homo sapiens with 4 samples.

Results

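Cytosolic translation initiation and elongation factors were examined in MCF10A, an immortalised but non-tumorigenic line of human breast epithelium. Members were the genes whose symbol in the array's probe annotation begins with EIF and a digit from 1 to 6, or with EEF1 or EEF2, without the EIF2AK kinases, EEF2K and the methyltransferases. There were 51 such genes among 19777 with a probe set naming 1 gene only, and each was represented by its brightest such probe set. Affymetrix U133 Plus 2.0 arrays were hybridised with RNA of cells labelled double knockdown, which carried short hairpin RNAs (shRNAs) against Cbl and Cbl-b (n = 2), and of cells with a control shRNA (n = 2). Both groups were grown in DFCI-1 medium and harvested under normal growth. Samples were made in duplicate, but nothing states that duplicates were separate cultures. The p-values therefore weigh changes against a spread among arrays that may be purely technical. Whether the hairpin cells were clones or pools is not stated.

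Translation begins when EIF2, carrying the initiator tRNA, joins the small ribosomal subunit together with EIF1, EIF1A, EIF3 and EIF5. The EIF4 factors bring the capped end of the mRNA to that complex, EIF1 and EIF1A open it for scanning, and EIF5 stimulates the GTP hydrolysis of EIF2 once the start codon is found. EIF5B then joins the large subunit, EIF2B reloads EIF2 with GTP, and EEF1 and EEF2 drive elongation. Phosphorylation of the alpha subunit of EIF2 blocks EIF2B and is the central step of the integrated stress response.

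The targeted transcripts were checked first. CBL had intensities of 31.1 and 29.0 on the arrays labelled double knockdown, against 125.9 and 84.4 on the control arrays, and fell 2.59-fold (log2 change -1.37 ± 0.15 SE, limma adjusted p = 0.00139), while its dimmer probe sets gave -0.33 and -0.20 with no call. CBLB was higher, at 94.8 and 99.5 in the labelled double knockdown against 64.3 and 70.05 in the control (log2 change 0.45 ± 0.09 SE, limma adjusted p = 0.0148). Leaving out double knockdown replicate 1 (adjusted p = 0.0861) or replicate 2 (0.132) ended that call. CBLB thus went against its label, and every direction below is that of the arrays labelled double knockdown. Median intensities of the 4 arrays lay between 14.5 and 14.7. Mammary epithelial markers were bright: 8 of 10 had a probe set of their own and all 8 were tested, with summed intensities of 23617 and 22429 in the labelled double knockdown, against 31370 and 30409 in the control. Of these, 4 rose and 2 fell (KRT5 and KRT14). Of the leukocyte markers with a probe set of their own, PTPRC and LYZ lay below the brightness minimum and CD3E was tested without a call, and the 3 summed to 28.5 and 29.0 in the labelled double knockdown, against 27.3 and 31.1 in the control. Of the endothelial markers, VWF and CDH5 lay below it and PECAM1 was tested without a call, and the 3 summed to 44.8 and 47.4 in the labelled double knockdown, against 52.5 and 51.4 in the control. The 4 fibroblast markers summed to 225 and 224 in the labelled double knockdown, against 297 and 302 in the control, and DCN was the member that fell. The part of these shifts in the results below was not tested.

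Of the 51 factors, 47 reached the brightness minimum, an intensity of 14.7, and were tested among 12951 genes. The dim members were EIF1AY, EEF1A2 and the single-gene probe sets of EIF3C and EIF4A2. Another 16 probe sets name a factor together with other genes and gave no value here. EIF4A1, EEF1G and EEF1B2 appear only on probe sets naming several genes and were not analysed. Changes are on the scale of log2(intensity + 16), folds are of intensity + 16, and a gene was called at an adjusted p under 0.05. By that rule 8 factors fell, or 17.02% of those tested, against a background of 6.6% of all genes, and 3 rose, or 6.38%, against 9.41%. EIF1AX, EIF4E2, EIF3K, EIF5B, EIF3J, EIF2S1, EIF2B1 and EIF5A fell, and EIF5, EIF1B and EIF4E3 rose. Either direction together made 16% of all genes. The count of 8 depended on single arrays: it was smaller whichever array was left out, and smallest without either array labelled double knockdown. Without double knockdown replicate 2 the share of factors called lower was below that of all genes. Without control replicate 1 it was 3 (6.38% of those tested, against 4.92% of all genes), and without control replicate 2 it was 5 (10.6%, against 6.76%). With a constant of 1 in place of 16 it was 2, or 4.26%, which is not above the 4.58% of all genes. The median log2 change of the 47 was -0.17, against -0.01 over all genes tested. Of the 47, 35 had a negative change (74.5%, against 52.04% of all genes). The median log2 value of the 47 was 10.04 and 10.22 on the arrays labelled double knockdown, against 10.17 and 10.27 in the control. These medians overlapped between groups, and their SD between arrays of a group was 0.10. Both arrays of the labelled double knockdown lay below both control arrays for 31 factors (65.96%, background 29.3%) and above both for 7 (14.9%, background 28.1%). The other 9 overlapped. Groups that did not overlap, in either direction, made up 57.5% of all genes.

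**Figure D1:**
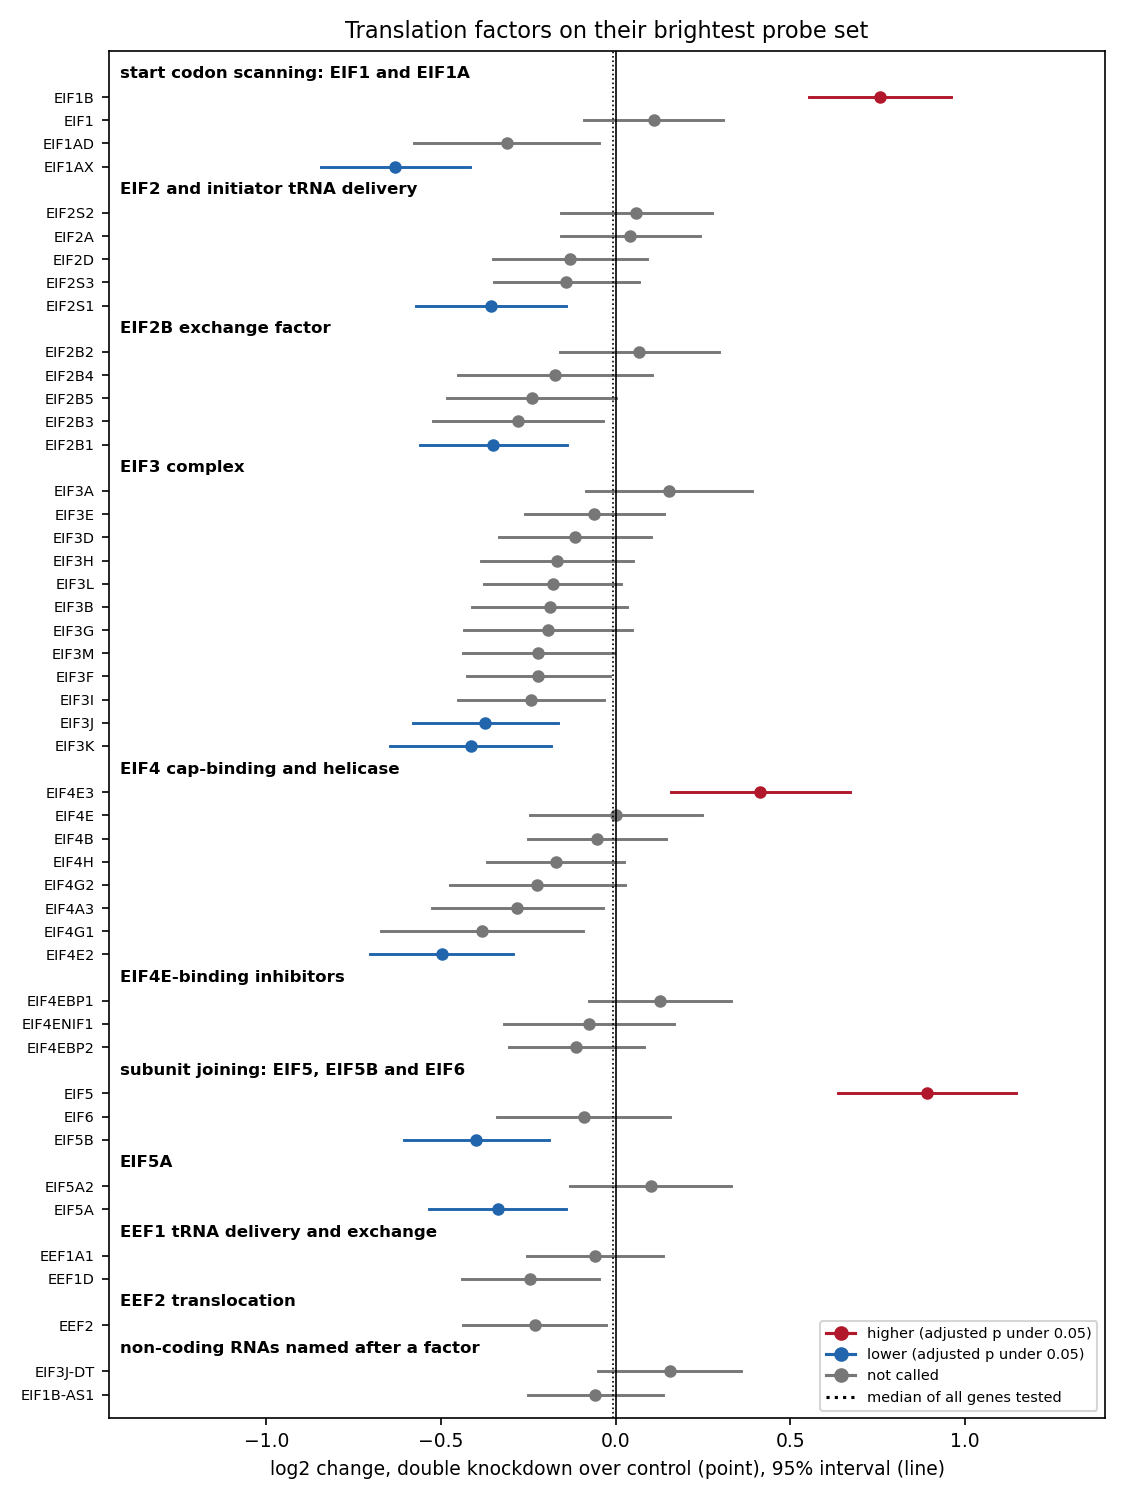
Log2 change of the 47 tested factors (x axis, arrays labelled double knockdown over control, point) with its 95% interval (line), by factor class, from 2 arrays per group; the dotted line is the median of all genes tested. EIF5, EIF1B and EIF4E3 lie to the right with the 3 called rises, while 8 called falls lie to the left, from -0.34 for EIF5A to -0.63 for EIF1AX.

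**Figure D2:**
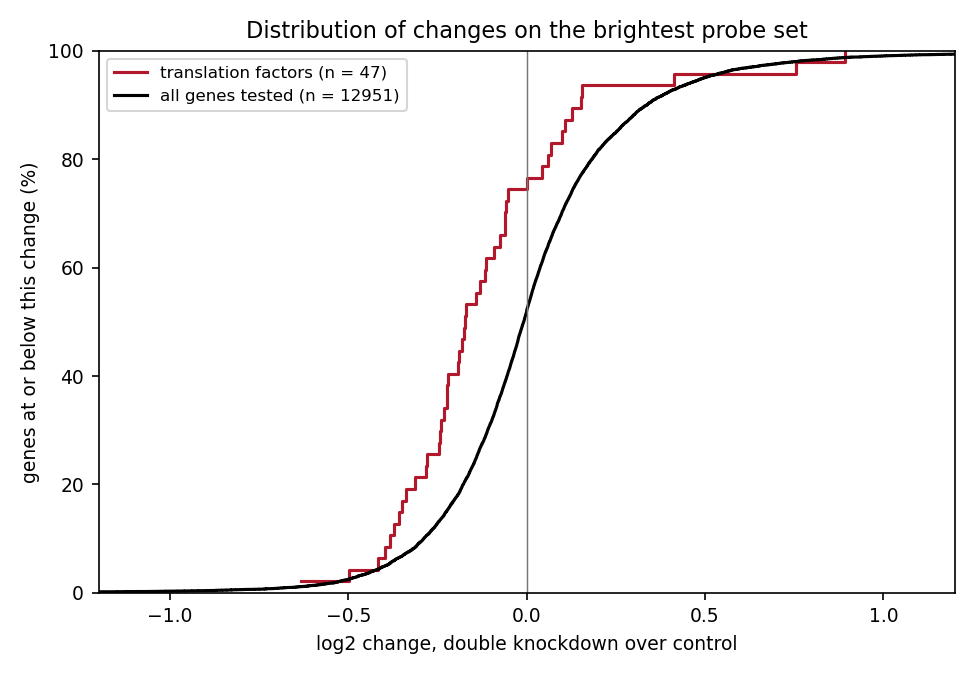
Share of genes (y axis, percent) at or below each log2 change (x axis) for the 47 factors and for all 12951 genes tested. The curve of the factors lies to the left through most of its middle, with a median of -0.17 against -0.01.

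The factors that fix the start codon moved apart from each other. EIF1B, a close relative of EIF1, had intensities of 1981 and 2016 in the labelled double knockdown, against 1134 and 1222 in the control. The groups were well apart, and EIF1B rose 1.69-fold (log2 change 0.76 ± 0.09 SE, limma adjusted p = 0.00168). EIF1B rested on 1 bright probe set, and had a log2 change of 0.36 when averaged with its dim one. It stayed called without each array in turn, with an adjusted p of at most 0.0211, and in each of the other 11 settings, with at most 0.0142. EIF1AX, the X-linked gene of EIF1A, moved the other way. It had 869 and 802 in the labelled double knockdown, against 1353 and 1254 in the control, a 1.55-fold fall (log2 change -0.63 ± 0.09 SE, limma adjusted p = 0.00468). Each of its 4 probe sets was called lower in a fit over 22904 probe sets, where 5.71% were called lower and 7.97% higher. The probe set with the largest fall read 592 and 533 in the labelled double knockdown, against 1152 and 975 in the control (log2 change -0.90 ± 0.11 SE, limma adjusted p = 0.00299). The call of EIF1AX on its brightest probe set ended when double knockdown replicate 2 was left out (adjusted p = 0.056).

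EIF1 itself, which holds the scanning complex open and rejects poor start codons, gave different answers by probe set. The brightest read 13167 and 12872 in the labelled double knockdown, against 12396 and 11761 in the control, and was not called (log2 change 0.11 ± 0.09 SE, limma adjusted p = 0.449, 95% interval -0.09 to 0.31). The next probe set read 4551 and 4642 in the labelled double knockdown, against 2770 and 2404 in the control, and was called higher (log2 change 0.83 ± 0.10 SE, limma adjusted p = 0.00264). Another 2 gave 0.84 and 0.82 and were called too. All 6 bright probe sets of EIF1 had a positive change and 3 were called, each of a type that can match several transcripts. Averaged over its probe sets, EIF1 was called higher (log2 change 0.49, limma adjusted p = 0.00938). EIF1AD, a protein with an EIF1A-like domain, had a log2 change of -0.31 ± 0.11 SE and was not called (adjusted p = 0.107).

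**Figure D3:**
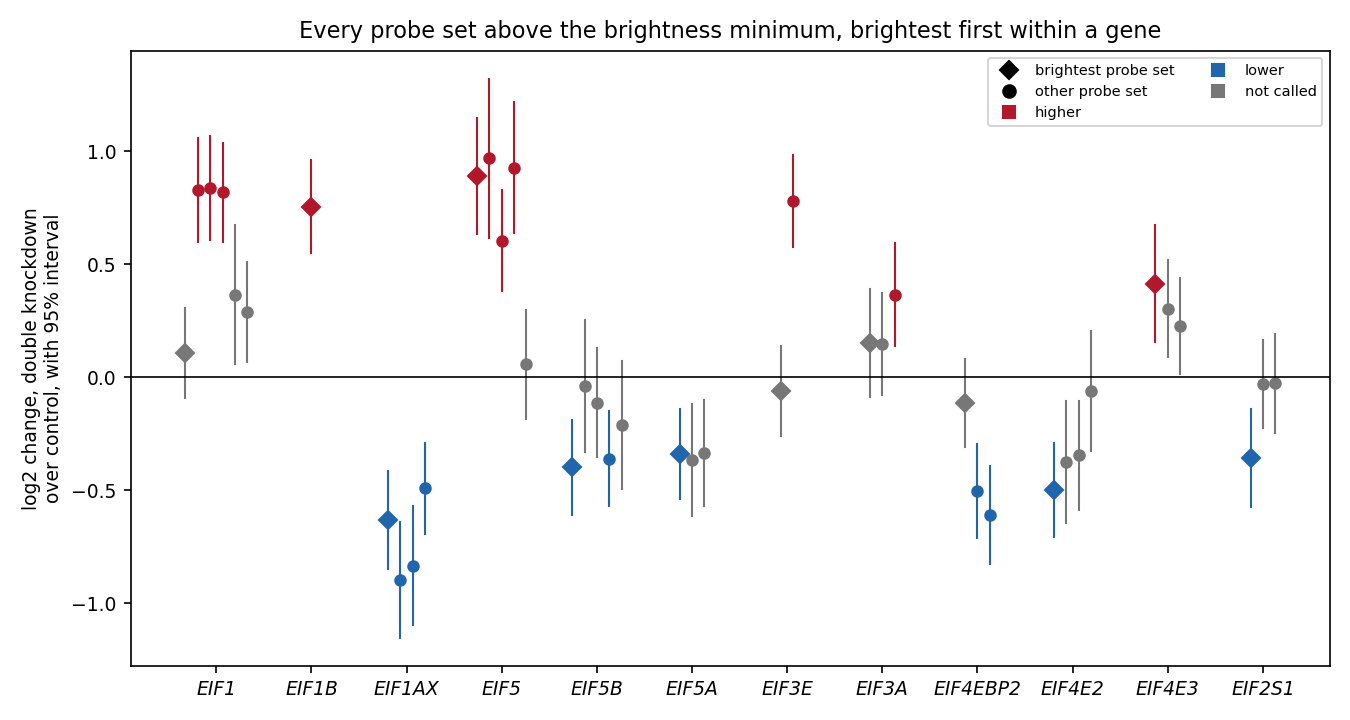
Log2 change (y axis, with 95% interval) of each probe set above the brightness minimum for 12 factors, the brightest as a diamond and placed first, 2 arrays per group. EIF1AX was lower on all 4 and EIF5 higher on 4 of 5, whereas EIF1, EIF3E, EIF3A and EIF4EBP2 were called on dimmer probe sets only.

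EIF5 and EIF5B, which act one after the other at the end of initiation, moved in opposite directions. EIF5 had 1183 and 1265 in the labelled double knockdown, against 593 and 718 in the control. Both arrays lay far above both control arrays, and the 1.85-fold rise was the largest change of any factor tested (log2 change 0.89 ± 0.11 SE, limma adjusted p = 0.00228). It was called without each array in turn, at an adjusted p of at most 0.0219. Of its 5 bright probe sets 4 were called higher, with log2 changes from 0.61 to 0.97. The remaining one, the only one of a type that matches a single transcript, read 42.2 and 44.8 in the labelled double knockdown, against 45.9 and 36.8 in the control, and gave 0.06 (limma adjusted p = 0.775). EIF5B, the GTPase of subunit joining, had 351 and 318 in the labelled double knockdown, against 440.2 and 451 in the control, and fell 1.32-fold (log2 change -0.40 ± 0.09 SE, limma adjusted p = 0.0234). Of its 5 bright probe sets 2 were called lower and all 5 had a negative change. The next brightest gave -0.04 (limma adjusted p = 0.89). EIF5B was not called on averaged probe sets (-0.18, limma adjusted p = 0.132) or on single-transcript probe sets only (-0.11, limma adjusted p = 0.542). The call of EIF5B on its brightest probe set was lost whichever array was left out: its adjusted p was 0.0506 without control replicate 1, 0.0565 without control replicate 2, 0.0856 without double knockdown replicate 1 and 0.213 without double knockdown replicate 2. EIF6, which keeps the subunits apart, had 1004 and 1176 in the labelled double knockdown, against 1103 and 1217 in the control, and a log2 change of -0.09 ± 0.11 SE with overlapping groups.

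**Figure D4:**
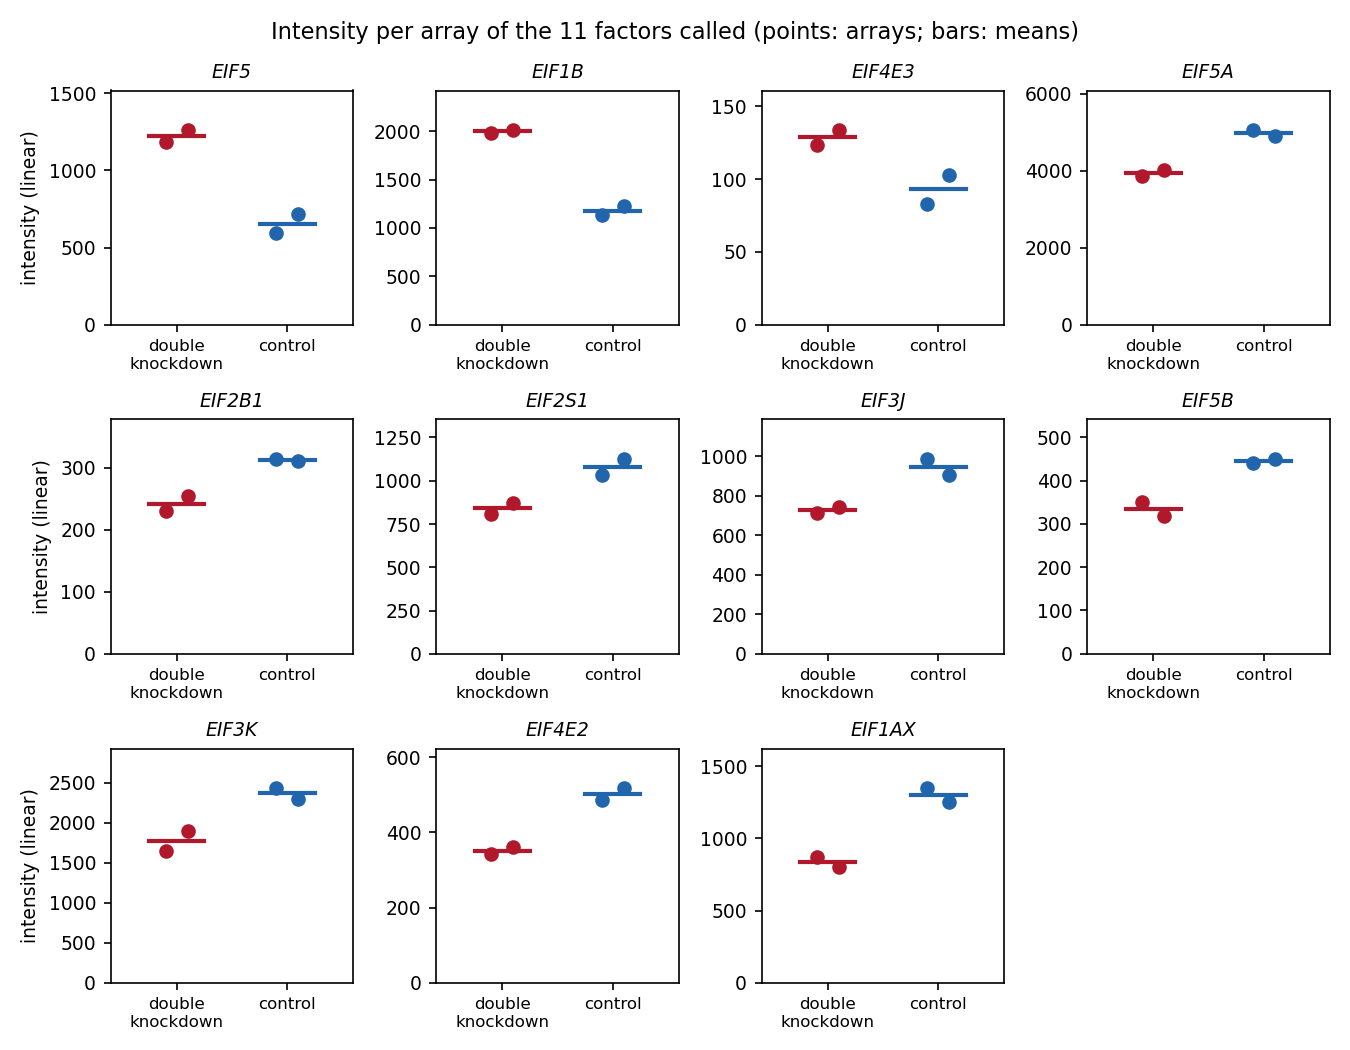
Intensity (y axis, linear, from 0) of the 11 called factors on each array, with the arrays labelled double knockdown at the left and the control arrays at the right of each panel; points are arrays and bars are means of 2. In all 11 panels both points of one group lie beyond both of the other, as they do for 57.5% of all genes tested. The panels were chosen by their call, which favours such separation.

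Among the subunits of EIF2, EIF2S1 was called. This alpha subunit, whose phosphorylation sets the integrated stress response, had 808 and 873 in the labelled double knockdown, against 1034 and 1128 in the control (1.28-fold lower, log2 change -0.36 ± 0.09 SE, limma adjusted p = 0.0382). Its other bright probe sets both gave -0.03, at adjusted p of 0.874 and 0.898 by limma, so the fall was seen on 1 of 3. It was lost without control replicate 2 (0.0988) or either array labelled double knockdown (0.256 without the first and 0.1405 without the second). The beta subunit EIF2S2, the brightest of the class, had 3597 and 4017 in the labelled double knockdown, against 3715 and 3582 in the control. Its groups overlapped (log2 change 0.06 ± 0.09 SE, 95% interval -0.16 to 0.28). The gamma subunit EIF2S3 had -0.14, and EIF2A and EIF2D, which can bring initiator tRNA without EIF2, had 0.04 and -0.13. None of these 4 was called.

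Of the 5 subunits of EIF2B, the exchange factor of EIF2, 4 had a negative change (80%, against 52.04% of all genes). The class median was -0.24. The regulatory subunit EIF2B1 fell, at 230.1 and 255 in the labelled double knockdown against 315 and 311 in the control (1.27-fold, log2 change -0.35 ± 0.09 SE, limma adjusted p = 0.0368). It rested on 1 probe set and was lost whichever array was left out, with adjusted p of 0.0844 without control replicate 1, 0.0686 without control replicate 2, 0.2702 without double knockdown replicate 1 and 0.121 without double knockdown replicate 2. EIF2B4, the brightest of the class, had 263 and 273 in the labelled double knockdown, against 269 and 344 in the control, with overlapping groups. EIF2B3 and the catalytic subunit EIF2B5 had -0.28 and -0.24 and EIF2B2 0.07, and none of the 4 was called.

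EIF3, the large scaffold on the small subunit, shifted by small amounts. Of 13 members 12 were tested, and 11 of them had a negative change (91.7%, against 52.04% of all genes). For those 11 both arrays labelled double knockdown lay below both control arrays (91.7%, against 29.3% of all genes). The class median was -0.19. Only EIF3K and EIF3J passed the test. EIF3K had 1649 and 1898 in the labelled double knockdown, against 2439 and 2295 in the control (1.33-fold lower, log2 change -0.42 ± 0.10 SE, limma adjusted p = 0.0291), and its other 2 bright probe sets gave -0.30 and -0.28 without a call. EIF3J, a loosely bound subunit, had 714 and 742 in the labelled double knockdown, against 989 and 908 in the control (1.295-fold lower, log2 change -0.37 ± 0.09 SE, limma adjusted p = 0.0291). The other bright probe set of EIF3J gave -0.14 (limma adjusted p = 0.387). On averaged probe sets both calls ended, at -0.27 for EIF3K (0.0542) and -0.26 for EIF3J (0.0604). The call of EIF3K was lost without control replicate 1 (0.0881) or either array labelled double knockdown (0.228 without the first and 0.0724 without the second), and that of EIF3J without the same arrays (0.0834, 0.197 and 0.149). EIF3I, EIF3F, EIF3M, EIF3G, EIF3B, EIF3L, EIF3H and EIF3D, which passed no test, had log2 changes from -0.24 to -0.12.

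EIF3A and EIF3E were called higher on a dimmer probe set only. EIF3A, the largest subunit, had 2144 and 1822 in the labelled double knockdown, against 1758 and 1797 in the control (log2 change 0.15 ± 0.10 SE, limma adjusted p = 0.371). A dimmer probe set of EIF3A was called higher at 0.37 (limma adjusted p = 0.0473), with 163 and 173 in the labelled double knockdown against 118 and 136 in the control. EIF3E, the brightest of the class, had 8451 and 8169 in the labelled double knockdown, against 8852 and 8486 in the control (log2 change -0.06 ± 0.09 SE, limma adjusted p = 0.694). A dimmer EIF3E probe set read 283 and 291 in the labelled double knockdown, against 154 and 167 in the control, and was called higher (log2 change 0.78 ± 0.09 SE, limma adjusted p = 0.00217). The direction of EIF3E therefore depended on the probe set. For EIF3B a dimmer probe set read 252 and 241 in the labelled double knockdown, against 324 and 311 in the control, and was called lower (log2 change -0.35, limma adjusted p = 0.0379).

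The cap-binding proteins of the EIF4 group divided. EIF4E, the main cap-binding protein, had 724 and 770.0 in the labelled double knockdown, against 683 and 814 in the control, with overlapping groups and a log2 change of 0.00 ± 0.11 SE (95% interval -0.24 to 0.25). Its next bright probe set read 333 and 246 in the labelled double knockdown, against 390.5 and 380.3 in the control, without overlap and without a call (log2 change -0.41 ± 0.14 SE, limma adjusted p = 0.0898), and 3 of its 4 bright probe sets had a negative change. EIF4E2, a relative linked to repression of the mRNAs it binds, had 342 and 361 in the labelled double knockdown, against 487 and 519 in the control, and fell 1.41-fold (log2 change -0.50 ± 0.09 SE, limma adjusted p = 0.00991). All 4 of its bright probe sets had a negative change and 1 was called. Its call was lost without double knockdown replicate 1 (0.09196) or 2 (0.0664). EIF4E3, another relative that binds the cap, was higher. It had 123 and 134 in the labelled double knockdown, against 83.02 and 103 in the control (1.33-fold, log2 change 0.41 ± 0.11 SE, limma adjusted p = 0.041), and its other 2 bright probe sets gave 0.30 and 0.23. That call was lost without control replicate 1 (0.121) or either array labelled double knockdown (0.127 without the first and 0.247 without the second). It also ended under quantile normalization (0.0516), with a constant of 1 (0.0656) or 64 (0.0598) and without a brightness filter (0.0966).

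The tested scaffolds and helicase partners of the cap complex did not pass. EIF4A1 was not analysed, and EIF4A2 was too dim to be tested. EIF4G2, the brightest of the class and a scaffold that does not bind EIF4E, had 2284 and 2056 in the labelled double knockdown, against 2743 and 2340 in the control (log2 change -0.22 ± 0.11 SE, limma adjusted p = 0.209). EIF4G1, the main scaffold, had 237 and 218 in the labelled double knockdown, against 342 and 265 in the control (log2 change -0.38 ± 0.12 SE, limma adjusted p = 0.077). The control arrays of EIF4G1 lay far apart, and without control replicate 2 it was called lower at -0.56 (adjusted p = 0.0179). EIF4A3, a helicase of the exon junction complex, had a log2 change of -0.28, and the helicase cofactors EIF4H and EIF4B had -0.17 and -0.05.

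Of the proteins that bind and restrain EIF4E, none was called on the brightest probe set. EIF4EBP1 had 2293 and 2431 in the labelled double knockdown, against 2218 and 2107 in the control (log2 change 0.13 ± 0.09 SE, limma adjusted p = 0.387). EIF4EBP2 on its brightest probe set had 167 and 162 in the labelled double knockdown, against 181 and 178 in the control (log2 change -0.11 ± 0.08 SE, limma adjusted p = 0.421). The other bright probe sets of EIF4EBP2 were called lower. One read 118 and 129.8 in the labelled double knockdown, against 181 and 184 in the control (log2 change -0.50 ± 0.09 SE, limma adjusted p = 0.0123). The dimmer one read 41.2 and 36.6 in the labelled double knockdown, against 64.5 and 70.9 in the control (-0.61 ± 0.09 SE, limma adjusted p = 0.00733). On single-transcript probe sets only, EIF4EBP2 was called lower (adjusted p = 0.00724). EIF4ENIF1, which carries EIF4E into the nucleus, had -0.08 with overlapping groups.

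No tested EEF1 or EEF2 factor was called on its brightest probe set. All 3 tested had both arrays labelled double knockdown below both control arrays, as did 29.3% of all genes. EEF1G and EEF1B2 were not analysed. EEF1A1, which delivers aminoacyl-tRNA and is among the most abundant proteins of a cell, had 21881 and 21263 in the labelled double knockdown, against 22499.9 and 22462 in the control (log2 change -0.06 ± 0.08 SE, limma adjusted p = 0.694). All 6 of its probe sets had a negative change. A dim one, with 53.0 and 46.6 in the labelled double knockdown against 69.5 and 70.2 in the control, was called lower (-0.39, limma adjusted p = 0.0315). EEF1D, a subunit of its exchange factor, had 4471 and 4545 in the labelled double knockdown, against 5238 and 5455 in the control (log2 change -0.24 ± 0.08 SE, limma adjusted p = 0.091), and its second probe set, with 3778 and 4169.6 in the labelled double knockdown against 5021 and 5397 in the control, was called lower (-0.39, limma adjusted p = 0.0348). EEF2, the translocase, had 9212 and 9277 in the labelled double knockdown, against 11312 and 10432 in the control (log2 change -0.23 ± 0.09 SE, limma adjusted p = 0.118), and its second probe set gave -0.32 (limma adjusted p = 0.0635). EEF2 was called lower on averaged probe sets (adjusted p = 0.0468) and with an intensity trend in the prior (0.0209), and EEF1D with that trend (0.0215) and with a constant of 64 (0.0357). EIF5A, the hypusine-bearing factor that helps ribosomes past proline-rich stretches, was the called member of this group. It had 3863 and 4005 in the labelled double knockdown, against 5068 and 4889 in the control (1.26-fold lower, log2 change -0.34 ± 0.09 SE, limma adjusted p = 0.034). Its other probe sets gave -0.36 and -0.33 at adjusted p of 0.063 and 0.0687. The call of EIF5A was lost whichever array was left out, with adjusted p of 0.0829 without control replicate 1, 0.05005 without control replicate 2, 0.226 without double knockdown replicate 1 and 0.175 without double knockdown replicate 2. Its paralog EIF5A2 had 0.10 with overlapping groups, and the non-coding RNAs EIF3J-DT and EIF1B-AS1, included by their symbols, had 0.15 and -0.06. EIF3J-DT had 30.9 and 33.7 in the labelled double knockdown, against 28.7 and 26.1 in the control, and was not called.

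Probe sets of one factor did not always point the same way. Of 30 factors with more than 1 bright probe set, 19 had changes of 1 sign on all of them, and no factor was called in both directions. The same share over all genes was not determined. Among 112 bright probe sets 11 were called higher (9.82%, against 7.97% of all probe sets) and 17 lower (15.2%, against 5.71%). For 7 factors a dimmer probe set was called although the brightest was not: EIF1, EIF3A and EIF3E (higher) and EIF3B, EIF4EBP2, EEF1A1 and EEF1D (lower).

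Genes that regulate or assist these factors were then counted from lists chosen by their known roles. Of 9 EIF2 kinases, phosphatase subunits and their regulators, 3 rose and none fell, with a median log2 change of 0.13. Over all genes tested, 9.41% were called higher and 6.6% lower. DNAJC3, an ER chaperone that restrains EIF2 kinases, had 1876 and 1751 in the labelled double knockdown, against 667 and 655 in the control (2.702-fold, log2 change 1.43 ± 0.09 SE, limma adjusted p = 8.54e-05). EIF2AK3, the ER stress kinase PERK, had 248 and 218 in the labelled double knockdown, against 93.9 and 92.4 in the control (2.28-fold, limma adjusted p = 0.000308). PPP1R15A, the inducible phosphatase subunit GADD34, had 117 and 102 in the labelled double knockdown, against 75.2 and 53.4 in the control (1.57-fold, limma adjusted p = 0.0178), and its call ended without the first array labelled double knockdown (0.112) or the second (0.059). PPP1R15B, the constitutive phosphatase subunit, had 0.35 (limma adjusted p = 0.0925). The other EIF2 kinases EIF2AK1, EIF2AK2 and EIF2AK4 had log2 changes of -0.08, -0.07 and 0.12 and were not called.

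In 4 further lists 7 of 57 tested genes were called (12.3%, against 16% of all genes), 6 of them lower (10.5%, against 6.6%). Of 19 genes of cap and poly(A) control 2 fell and none rose (median -0.17): DHX29, a helicase that aids scanning (-0.33, limma adjusted p = 0.048), and PABPC3 (-0.42, limma adjusted p = 0.0386), whose probe set may also bind its near copy PABPC1 (itself -0.18 and not called). Averaged over its probe sets, DHX29 had -0.14 without a call (limma adjusted p = 0.166). LARP1, which binds TOP mRNAs, had -0.40 without a call (limma adjusted p = 0.237). Of 11 genes of reinitiation, termination and recycling 2 fell and none rose (median -0.15): ABCF1, which binds EIF2, had 310.1 and 301 in the labelled double knockdown, against 419.6 and 423 in the control (-0.44, limma adjusted p = 0.0126), and ABCF2 had -0.32 (limma adjusted p = 0.039). Dimmer probe sets of ABCF2 gave -0.27 and -0.07 without a call. Of 16 enzymes that modify translation factors 1 rose, EEF1AKMT2 (0.36, limma adjusted p = 0.0315), and 1 fell, EEF1AKMT1 (-0.33, limma adjusted p = 0.0494). A dimmer probe set of EEF1AKMT2 gave 0.03 (limma adjusted p = 0.902), and its averaged probe sets gave 0.13 (limma adjusted p = 0.23). Of 11 mitochondrial factors GFM1, the mitochondrial elongation factor G, fell (-0.50, limma adjusted p = 0.00821), and the median was 0.02. Leaving out double knockdown replicate 1 or 2 ended each of these calls, at adjusted p of 0.101 and 0.258 for PABPC3, 0.233 and 0.241 for DHX29, 0.08596 and 0.11996 for ABCF1, 0.208 and 0.243 for ABCF2, 0.141 and 0.229 for EEF1AKMT2, 0.316 and 0.149 for EEF1AKMT1, and 0.07596 and 0.0712 for GFM1. Leaving out control replicate 1 ended those of PABPC3 (0.122), ABCF2 (0.0853), EEF1AKMT1 (0.0655) and EEF1AKMT2 (0.0887), and leaving out control replicate 2 those of DHX29 (0.1203), ABCF2 (0.0619) and EEF1AKMT1 (0.118).

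The promoters of 42 of the 51 members matched the RefSeq promoter table of build GRCh38.p14, which spans 250 bases before to 50 bases after each annotated start. Many mRNAs of the translation machinery begin with a cytosine and a run of pyrimidines, the terminal oligopyrimidine (TOP) sequence through which mTOR and LARP1 control their translation. A start of C and at least 4 further pyrimidines was found in 11 of 42 members (26.2%), against 4.04% of all 27305 promoters and 5.16% of the 10436 promoters of tested genes. The following starts, of 30 bases from 15 before the annotated start, are shown because they carry that run, which is in capitals (the cap-side base is its first).
EEF1A1 (chr6:73521018-73521047, minus strand): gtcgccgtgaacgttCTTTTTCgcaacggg
EEF2 (chr19:3985449-3985478, minus strand): gttgacgtcagcgttCTCTTCCgccgtcgt
EIF4B (chr12:53006441-53006470, plus strand): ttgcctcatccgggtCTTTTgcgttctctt
EIF3D (chr22:36529152-36529181, minus strand): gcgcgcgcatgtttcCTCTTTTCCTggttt
EIF3F (chr11:7987322-7987351, plus strand): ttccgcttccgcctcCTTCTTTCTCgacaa
EIF3K (chr19:38619173-38619202, plus strand): ttccgtttccaccacCTCTTCCTgttcccg
EIF3M (chr11:32583816-32583845, plus strand): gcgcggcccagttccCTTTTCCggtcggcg

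EIF5, EIF1B and EIF1AX, which changed most, and EIF1 do not begin that way at their annotated starts, shown over the same window with no capitals.
EIF5 (chr14:103334222-103334251, plus strand): gcggcggcgttgttcagtcagagcgagaac
EIF1B (chr3:40309692-40309721, plus strand): tcggccattttgtgcgagaagccgcagcgc
EIF1AX (chrX:20141824-20141853, minus strand): gcaaagagtcgcggcgccatttgctgccgc
EIF1 (chr17:41688870-41688899, plus strand): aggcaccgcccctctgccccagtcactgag

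Of the 10 tested members with a pyrimidine start, 9 had a negative change, EIF3K was called lower and none higher, with a median log2 change of -0.14 and a range from -0.42 to 0.04. The 29 tested members without it had a median of -0.19, with 7 called lower and 3 higher. No difference between these sets was tested.

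The E-box CACGTG, which MYC and related factors bind and which reads the same on both strands, was present in 11 of 42 member promoters (26.2%), against 7.43% of all promoters and 10.2% of those of tested genes. Members with it had a median log2 change of -0.17 and those without it -0.18, with 1 called in each direction among the 11 tested. The windows of EIF1B and the non-coding EIF1B-AS1 overlap and share 1 E-box, which was counted for both. The sites below are shown with the E-box in capitals, since they include 1 called factor of each direction, the cap-binding EIF4E and the scaffold EIF4G1. EIF4E and EIF4G1 each hold another E-box farther upstream, at -225 and -144, which is not shown.
EIF1B (chr3:40309641-40309670, plus strand): gcgcgggacggtCACGTGggaggggccgcg
EIF3K (chr19:38619073-38619102, plus strand): cgaggaagaagtCACGTGgcagccggaaag
EIF4G1 (chr3:184314527-184314556, plus strand): ccctgcgccggtCACGTGggggcgccggct
EIF4E (chr4:98929188-98929217, minus strand): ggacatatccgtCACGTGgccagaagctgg

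The ATF4 element TGATGNAA was found on neither strand of any of the 42 windows, against 3.67% of all promoters and 1.93% of those of tested genes. The ER stress element, searched on both strands, was found in 1, that of EIF2A, which was not called, against 0.0806% of all promoters and 0.134% of those of tested genes, and its site is shown with the element in capitals.
EIF2A (chr3:150546705-150546734, plus strand): aaacaCCAATTCGCTGTCTCCACGcatgag

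The ETS motif CCGGAAG was found on either strand in 10 of 42 (23.8%), against 10.7% of all promoters and 18.2% of those of tested genes. The whole stretch upstream of the start is given for EIF5 and EIF1B, the members with the largest rises, with the E-box in capitals. EIF5 holds none of these 4 motifs in its window, and EIF1B holds the E-box 54 bases before its start.
EIF5 (chr14:103333987-103334236, plus strand): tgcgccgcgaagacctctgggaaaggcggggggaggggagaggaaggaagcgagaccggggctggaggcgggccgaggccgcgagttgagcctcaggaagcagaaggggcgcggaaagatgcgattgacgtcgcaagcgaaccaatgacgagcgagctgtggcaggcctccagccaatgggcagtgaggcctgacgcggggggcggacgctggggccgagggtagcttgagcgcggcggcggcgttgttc
EIF1B (chr3:40309457-40309706, plus strand): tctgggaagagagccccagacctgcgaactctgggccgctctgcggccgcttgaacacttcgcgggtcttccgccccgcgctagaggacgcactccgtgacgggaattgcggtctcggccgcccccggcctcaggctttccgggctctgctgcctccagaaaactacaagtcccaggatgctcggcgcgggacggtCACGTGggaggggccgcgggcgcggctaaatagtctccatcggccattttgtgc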

How the data were processed

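Total RNA of 4 samples was measured on 1 Affymetrix U133 Plus 2.0 array each. Titles gave the groups and sample numbers. The file deposited by the authors holds 1 intensity on a linear scale for every probe set on every array, which its values show. The summarisation and normalization behind it are not given in the sources used here. No further normalization was applied. Of 54675 probe sets, 41091 name 1 gene, 1801 several and 11721 none, and 62 are controls. Gene names come from the platform annotation, updated by gene identifier (41037 probe sets) from RefSeq (GRCh38.p14), except that members keep their platform symbol.

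Each gene was represented by its brightest probe set, and those with a mean at or above the median of all probe sets, 14.7, were tested on log2(intensity + 16) with limma (version 3.58.1, R version 4.3.3), using lmFit and eBayes two-sided on all 4 arrays with no covariate. Benjamini-Hochberg adjustment ran over 12951 genes, or over 22904 probe sets where single probe sets are given. Every adjusted p in the text is from limma, and standard errors are moderated. The depth of an array is not a count, and the number of arrays limits the precision.

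Members, lists and tests were chosen with earlier results of these data known. Per-array values were given for the called factors, the brightest tested factor of each class and, beyond that rule and after their values were seen, for EIF1AX and EIF5 on single probe sets, for factors called on a dimmer probe set only and for EIF4E, EIF4G1 and EIF4EBP2. Alternatives covered scaling, probe set choice, the constant, the brightness filter, the prior, a replicate block and leaving out each array. Promoters were searched on both strands.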

Additional observations from a re-analysis of the deposited data

How the results depend on the processing

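The median log2 change of the factors was negative under every alternative, from -0.0758 on single-transcript probe sets only to -0.177 with the stricter brightness filter. Without each array in turn it lay between -0.174 and -0.133. The count of factors called lower, 8 as reported, was 5 on averaged probe sets (10.6% of those tested, against 6.83% of all genes), 3 on single-transcript probe sets only (8.11%, against 5.9%), 2 with a constant of 1 (4.26%, against 4.58%) and 5 without a brightness filter (9.8%, against 3.04%). It was 11 with an intensity trend in the prior (23.4%, against 7.01%) and 9 with a constant of 64 (19.1%, against 6.6%). Of the 11 called factors, 6 kept their call on averaged probe sets, 4 on single-transcript probe sets, 4 with a constant of 1 and 7 without a brightness filter. The count called higher, 3 as reported (6.38%, against 9.41% of all genes), was 5 on averaged probe sets (10.6%, against 8.69%). Leaving out 1 array gave 0 to 5 factors lower, 2 to 3 higher and 536 to 1995 genes called in all, against 2074. Without double knockdown replicate 1 there was 1 factor lower, and 1.49% of all genes were called lower. Without double knockdown replicate 2 the count of factors lower was smallest and their share was below that of all genes. The median log2 change of the factors was then -0.168. EIF3E changed sign and was called higher on averaged probe sets (log2 change 0.36), on single-transcript probe sets only (0.78) and on its dimmer probe set alone (0.78). The cause of these differences was not tested. Called factors kept their direction in each setting that tested them. Only 37 of the factors had a single-transcript probe set bright enough to test. Under the 3 other scalings the median of all genes lay between -0.0235 and -0.00399.

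Sample numbers of the titles name the arrays and are not stated to pair them. Deviations of same-numbered arrays correlated at r = 0.244 across genes, which are not independent. With the number as a replicate block 9 factors were lower (19.1% of those tested, against 8.35% of all genes) and 3 higher (6.38%, against 11%). In all, 2504 genes were called. EIF4G1 was then called (adjusted p = 0.0366), and no factor lost its call. Of these settings, only the one without a brightness filter tested probe sets below an intensity of 14.7 by themselves. Such dim probe sets also entered the averages over a gene's probe sets.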
